A study of Drosophila melanogaster with 12 samples.

Results

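The synaptic vesicle release machinery was followed here through 10 fly genes, Rab3, Rim, brp, unc-13, Syx1A, nSyb, Snap25, Syt1, cpx and Syn, in RNA of adult heads and early embryos and in p53 binding maps of the same tissues. The genes were taken by name from a fixed set of symbols. All 10 were found among the 16508 rows with a unique symbol in each tissue's table, and all 10 reached 1 FPKM (fragments per kilobase of transcript, scaled to library size) in at least 1 group of each tissue. That limit was passed by 10670 genes in heads and 10652 in embryos.

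The study asked what p53, which binds DNA and turns genes on when the genome is damaged, does in postmitotic and in embryonic tissue of Drosophila melanogaster. RNA came from 8 libraries, 1 for each combination of tissue (mixed adult heads or whole embryos), genotype (yw flies, called wild type here, or the p53 mutant p535A-1-4) and treatment (mock or 40 Gy of ionizing radiation). Flies had been kept for 1 to 2 weeks, with the genotypes matched for age, and had 3 h of recovery. Embryos were treated at 3 to 4 h of age, had 1.5 h of recovery and are labelled 4.5 to 5.5 h. Whether the mutant and yw strains share a genetic background is not given in the sources used here, so genotype cannot be told apart from strain. p53-bound chromatin came from 4 further libraries, wild type and mutant of each tissue, with no radiation given in the labels. The peaks compare wild-type with mutant chromatin. Each group has 1 library, so nothing below could be checked against replicates, no p-value is given, and all values describe these libraries. A library of whole heads or embryos mixes many cell types, and fewer cells of a type cannot be told apart from less RNA per cell.

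A neuron releases transmitter when a vesicle fuses with the membrane at the active zone. The vesicle protein nSyb (neuronal Synaptobrevin) pairs with Syx1A (Syntaxin 1A) and Snap25 in the target membrane to form the SNARE complex that drives fusion. unc-13 readies Syntaxin for this pairing, cpx (Complexin) holds the assembled complex, and Syt1 (Synaptotagmin 1) senses the calcium that triggers fusion. brp (Bruchpilot) and Rim build the active zone, Rab3 is a GTPase on the vesicle that Rim binds, and Syn (Synapsin) holds vesicles in reserve. In flies, brp mutants lose the dense body of the active zone, and loss of Rab3 changes how active zones are shared out along the nerve terminal.

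The labels were checked first. p53 stood at 11.7 FPKM in mock and 13.3 FPKM in irradiated wild-type heads, against 0.532 and 0.549 FPKM in the mutant heads. In embryos it stood at 25.9 and 54.5 FPKM in wild type, against 0.70 and 0.34 FPKM in the mutant. The low mutant values go with the labels. Library depth can be estimated because low FPKM values rise in steps worth 1 fragment each. It came to between 18.4 and 24.7 M fragments per embryo library. For heads the estimate depended on the method and lay between 6.44 and 15.4 M, so head counting errors below use the lowest reading of each library.

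In heads the machinery was abundant, with 1 exception. The SNARE clamp gene cpx had the highest level of the 10, 589 FPKM in mock wild type, 551 in irradiated wild type, 493 in the mock mutant and 447 in the irradiated mutant. The SNARE gene Snap25 followed with 378, 376, 338 and 296 FPKM in the same order of groups. nSyb stood at 295, 281, 315 and 334 FPKM. Among all expressed genes of mock wild-type heads these 3 lay at percentiles 98.8, 97.9 and 97.1. In cpx and Snap25 both mutant libraries were below both wild-type libraries (31.4% of all genes), while in nSyb both were above (32.5%).

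The calcium sensor gene Syt1 was measured at 145 and 137 FPKM in mock and irradiated wild-type heads and at 146 and 137 FPKM in the mutant heads, so the genotypes overlapped. Syn, the reserve pool gene, had 126, 127, 108 and 100.1 FPKM, and Rab3 had 110.5, 100.01, 116 and 107 FPKM. unc-13, the priming gene, had 103.8, 102.9, 87.3 and 82.9 FPKM. Syn and unc-13 were lower in both mutant libraries (31.4% of all genes), whereas the Rab3 genotypes overlapped.

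The active zone scaffold genes were lower in level per kilobase. brp had 61.8 FPKM in mock and 63.0 in irradiated wild-type heads, and 48.9 and 43.5 FPKM in the mutant heads. Rim had 46.3, 45.9, 41.0 and 35.95 FPKM. In both genes the wild-type pair lay above the mutant pair (31.4% of all genes), and the irradiated mutant was the lowest library. Syx1A was the exception to the high levels, with 12.2, 10.5, 11.9 and 10.2 FPKM and percentile 34.5 of expressed genes, although its product is a partner of nSyb and Snap25 in the same complex. Its locus, described with the peaks, makes this value uncertain.

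In mock wild-type heads the levels ran in the order cpx, Snap25, nSyb, Syt1, Syn, Rab3, unc-13, brp, Rim, Syx1A. Snap25 and nSyb, Syn and Rab3, Rab3 and unc-13, and brp and Rim were neighbours whose ranges over the 4 head libraries overlapped. For the neighbours Rab3 and unc-13 the 95% counting intervals of the mock wild-type levels overlapped as well.

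**Figure D1:**
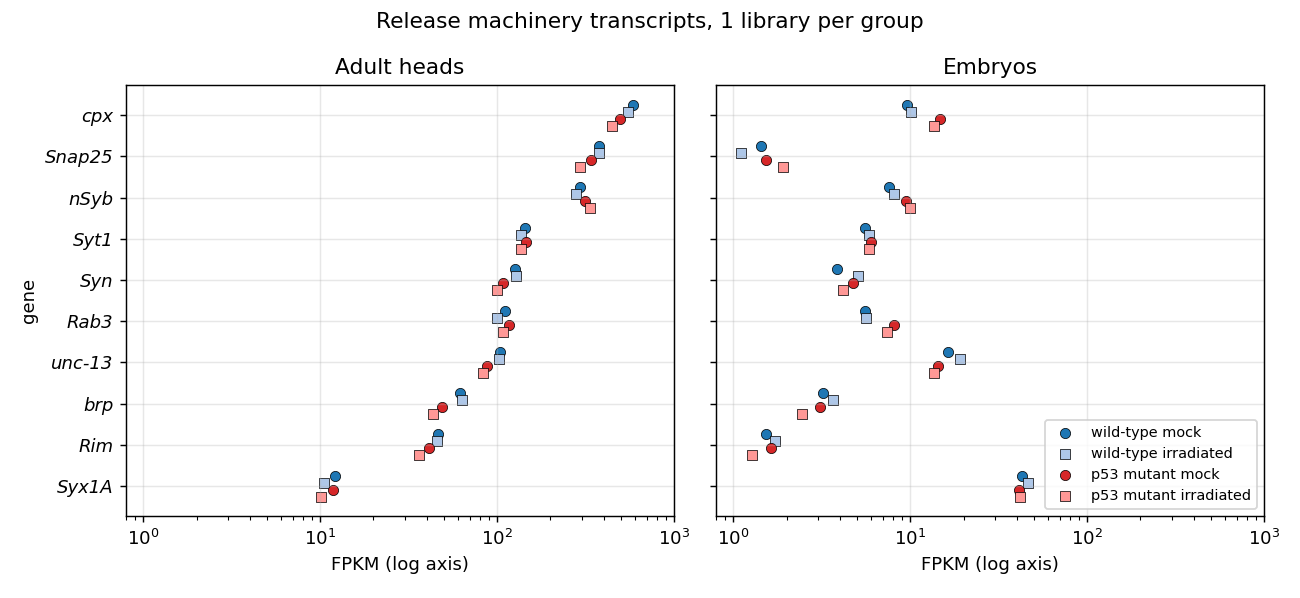
Levels of the 10 release machinery genes in FPKM (log axis) in adult heads, left, and embryos, right, with 1 marker per library; circles are mock and squares irradiated libraries, blue wild type and red p53 mutant. In heads cpx lay highest and Syx1A lowest, and in embryos Syx1A lay highest, near 42.9 FPKM.

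Embryos of this age have few differentiated neurons, and the order was different there. Syx1A had the highest level, 42.9 FPKM in mock and 46.0 in irradiated wild type, and 41.4 and 41.6 FPKM in the mock and irradiated mutant. unc-13 came next with 16.3, 19.0, 14.4 and 13.6 FPKM. In both genes the mutant libraries lay below the wild-type libraries, as in 32.4% of all genes. The locus of Syx1A makes its embryo value uncertain too.

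For cpx the embryo levels were 9.52, 10.1, 14.7 and 13.7 FPKM, for nSyb 7.61, 8.10, 9.48 and 9.91 FPKM, and for Rab3 5.55, 5.62, 8.09 and 7.43 FPKM. These 3 genes were higher in both mutant embryo libraries than in both wild-type ones, as were 33.5% of all genes. Syt1 showed 5.56, 5.83, 6.02 and 5.83 FPKM, with no gap between the genotypes. Syn had 3.86, 5.06, 4.74 and 4.17 FPKM, and here mock wild type was the lowest and irradiated wild type the highest library.

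The scaffold genes brp (3.19, 3.65, 3.09 and 2.43 FPKM) and Rim (1.53, 1.73, 1.64 and 1.28 FPKM) lay low in embryos, with the irradiated mutant lowest in each. Snap25 had the lowest level in mock wild type, 1.43 FPKM, with 1.11 in irradiated wild type, 1.52 in the mock mutant and 1.91 in the irradiated mutant. It lay at percentile 11.7 of expressed embryo genes, where Syx1A lay at 70.8. The neighbours Syt1 and Rab3, and Rim and Snap25, overlapped both in their 4 libraries and in their counting intervals. unc-13 and cpx, and cpx and nSyb, overlapped in their 4 libraries, while Syn and brp overlapped in their counting intervals.

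With the tissues set side by side, although they were normalised in separate tables, 9 of the 10 genes had a higher mock wild-type level in heads. The share of all genes with a higher head level was not counted, so this count has no background beside it. The ratio of head to embryo FPKM was 264 for Snap25, 61.9 for cpx, 38.8 for nSyb, 32.7 for Syn, 30.2 for Rim, 26.0 for Syt1, 19.9 for Rab3, 19.4 for brp and 6.36 for unc-13. Syx1A ran the other way, with an embryo level 3.53 times the head level. Snap25 and Syx1A, partners in the SNARE complex, therefore lay at opposite ends of the range. Both ends are weakly measured. The Snap25 embryo level rests on 55 fragments by the lowest depth reading, and the locus of Syx1A makes its values uncertain in both tissues.

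The broadly used relatives of the neuronal SNAREs were spread differently over the tissues. Syb, the general Synaptobrevin, had 161, 181, 230 and 215 FPKM in heads and 231, 219, 248 and 263 FPKM in embryos, so its embryo level was far above that of nSyb. Snap24 had 51.4 to 59.8 FPKM in heads and 44.2 to 52.7 in embryos, and Snap29 had 36.3 to 39.3 and 35.6 to 44.3 FPKM. Of the SNARE relatives looked for, 12 of 13 were found, and none passed 2-fold in any comparison of either tissue.

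Radiation came first among the comparisons. Differences were taken as log2(FPKM + 1), which understates changes of genes near 1 FPKM. In wild-type heads 0 of 10 members differed by 2-fold between irradiated and mock libraries, where 2.01% of all genes tested did. The median of the 10 log2 differences was -0.04, beside 0.01 over all genes, and it was -0.01 after rescaling all libraries to a common total or without Syx1A. The values ran from -0.19 for Syx1A to 0.03 for brp, and 8 of 10 were below 0 (47.5% of all genes). In mutant heads again 0 of 10 passed 2-fold (1.37% of all genes), with a median of -0.13 beside -0.04 over all genes, and 9 of 10 were below 0 (57.6%). Radiation-treated heads had the lower level in both genotypes for 7 members, Rab3, Rim, unc-13, Syx1A, Snap25, Syt1 and cpx, a pattern that 27.2% of all genes shared. Markers of nerve cells had it too, in 16 of 21 neuron markers and in 13 of 14 photoreceptor markers, with wild-type medians of -0.07 and -0.11 and mutant medians of -0.16 and -0.13. Of 11 glia markers 5 had it and 2 were higher in both genotypes (21.5% of all genes), with medians of -0.08 in wild type and -0.0009 in the mutant. Of 12 muscle markers 2 had it, because the genotypes went opposite ways. In wild type 9 muscle markers were above 0, with a median of 0.08. In the mutant 11 were below 0, with a median of -0.24, farther from 0 than the neuron and photoreceptor medians. The part of these markers in the members' radiation differences was not tested.

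These head differences were small, and for several genes they were inside counting error. The wild-type ratio of irradiated to mock was 0.995 for Snap25, with a counting interval of 0.958 to 1.03, and 0.993 for Rim, with an interval of 0.942 to 1.05. For cpx it was 0.935, with an interval of 0.915 to 0.956. That interval covers counting error only and says nothing of the spread between animals.

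In embryos radiation likewise left 0 of 10 members past 2-fold, in wild type (2.22% of all genes) and in the mutant (1.97%). The median log2 difference was 0.09 in wild type, beside 0.02 over all genes, and -0.09 in the mutant, beside 0.04. The mutant median was -0.14 after the rescaling. It was also -0.14 after centring on the median of the 6172 genes at 10 FPKM or more in all 4 embryo groups. Below 0 lay 1 of 10 members in wild type (45.8% of all genes) and 7 of 10 in the mutant (41.3%). The 2 genotypes differed in sign for several genes. Syn differed by 0.32 between irradiated and mock wild-type embryos and by -0.15 in the mutant pair. unc-13 differed by 0.21 in wild type and by -0.08 in the mutant. Differences of the scaffold genes were 0.15 and -0.25 for brp and 0.11 and -0.21 for Rim, where the counting interval of the wild-type ratio of Rim (0.952 to 1.34) included 1. Snap25 ran opposite to these, with -0.20 and 0.21, and both of its intervals included 1, at 0.516 to 1.17 in wild type and 0.901 to 1.76 in the mutant. Gut markers differed between the same libraries: 8 of 10 were more than 2-fold higher after radiation in wild-type embryos and 7 of 10 in mutant ones. Neuron and fat body markers had the members' signs, with medians of 0.06 and 0.10 in wild type and -0.07 and -0.31 in the mutant. The other expressed presynaptic genes, 39 in all and described below, had 0.12 and -0.06. Photoreceptor, glia and maternal medians were above 0 in both genotypes, and muscle and embryonic neural medians below 0 in both. The part of these lists in the members' values was not tested.

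The radiation difference of wild type minus that of the mutant is called the p53-dependent response here, although genotype cannot be told apart from strain. When both it and the wild-type response had to pass 2-fold, it held 0 of 10 members in heads (1.61% of all genes) and 0 of 10 in embryos (1.33%). The median over the members was 0.05 in heads and 0.15 in embryos, beside 0.04 and -0.01 over all genes. The head median was 0.02 after centring and 0.10 after rescaling, and the embryo median 0.24 after rescaling. It was below 0 in 2 of 10 members in heads (42.6% of all genes) and in 1 of 10 in embryos (51.9%). The 2 highest embryo values were 0.47 for Syn and 0.40 for brp, and the lowest was -0.41 for Snap25. In heads the values ran from -0.15 for nSyb to 0.19 for brp. Expressed neuron markers had an embryo median of 0.12, with 5 of 19 below 0. The other presynaptic genes had 0.14, with 6 of 39 below 0. Glia and muscle markers had 0.01 and -0.13 in embryos.

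**Figure D2:**
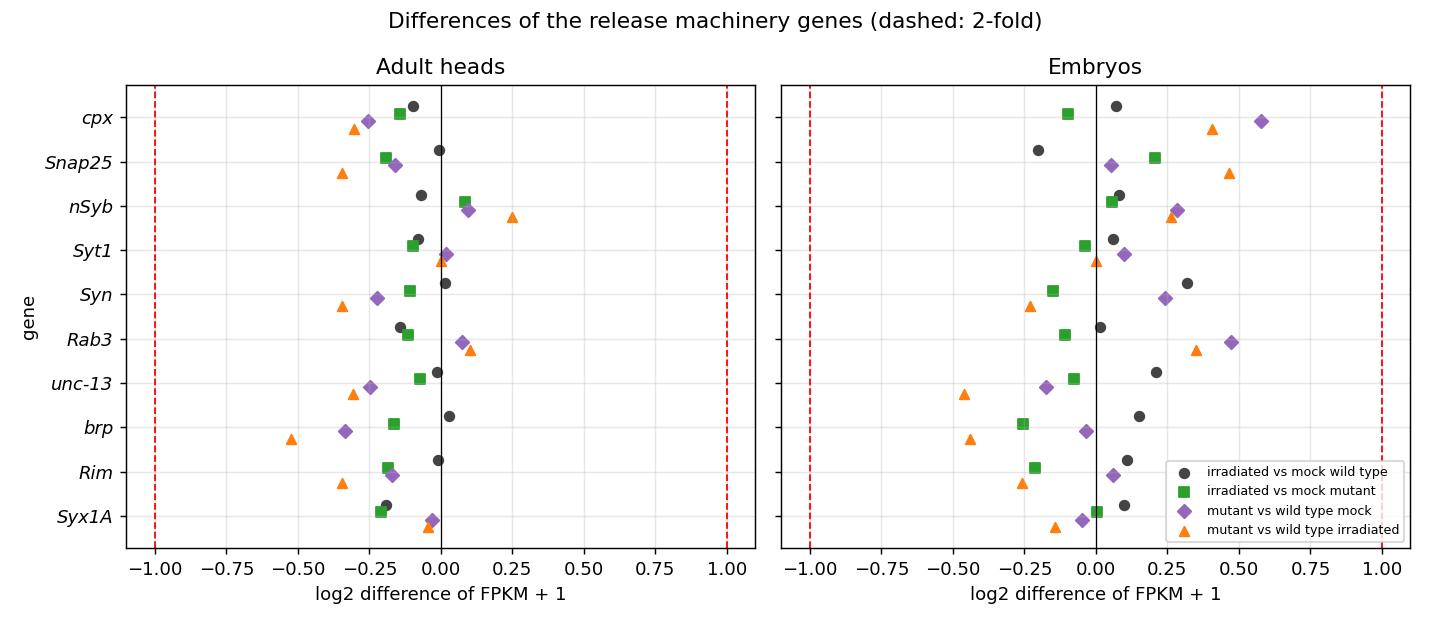
Log2 differences of FPKM + 1 for the 10 genes in adult heads, left, and embryos, right, for the 4 comparisons of single libraries named in the legend; the dashed lines mark 2-fold. No marker reaches a dashed line, and the marker farthest from 0 is that of cpx in mock embryos, at 0.58.

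In heads the members' medians lay farther from 0 between the genotypes than between mock and irradiated libraries. At 2-fold the mutant differed from wild type in 0 of 10 members among mock heads (7.59% of all genes) and in 0 of 10 among irradiated heads (8.1%). The median of the members was -0.17 in mock and -0.31 in irradiated heads, beside 0.03 and -0.02 over all genes. The mutant level was the lower in 7 of 10 members of mock heads (46.3% of all genes) and in 8 of 10 of irradiated heads (51.9%). In 6 members, Rim, brp, unc-13, Snap25, cpx and Syn, both mutant head libraries lay below both wild-type libraries, an arrangement found in 31.4% of all genes. In 1 member, nSyb, both lay above (32.5% of all genes). These counts were chosen after the levels were seen, and the comparisons share libraries.

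The active zone gene brp had the lowest head value, a log2 difference of -0.33 among mock and -0.52 among irradiated libraries. Its irradiated ratio of mutant to wild type was 0.690, with a counting interval of 0.658 to 0.724. Syn, Rim and Snap25 followed with irradiated differences of -0.34 each, unc-13 with -0.31 and cpx with -0.30. In the mock libraries the same 5 genes ran from -0.26 for cpx to -0.16 for Snap25. The vesicle SNARE nSyb differed by 0.10 in mock and by 0.25 in irradiated heads, with an irradiated ratio of 1.19 and a counting interval of 1.14 to 1.24. Syt1 was level between the genotypes, at 0.02 and 0.00.

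Many general neuronal genes also had lower levels in the mutant heads, while photoreceptor genes went both ways. Of 21 neuron markers found, 18 had both mutant head libraries below both wild-type libraries (31.4% of all genes) and 0 had them above (32.5%). The neuron marker medians were -0.27 in mock and -0.29 in irradiated heads. The defining marker elav had 35.5, 33.6, 33.4 and 29.0 FPKM, and Gad1, the enzyme that makes GABA, had 192, 190.0, 142 and 126 FPKM. The summed level of the neuron markers was 2214 and 2011 FPKM in wild type and 1827 and 1703 FPKM in the mutant, and that of the 10 members 1867, 1794, 1707 and 1594 FPKM. Of 14 photoreceptor markers 4 lay below and 5 above in both mutant libraries, with medians of 0.10 and 0.05 and sums of 17394 and 16267 against 17355 and 15694 FPKM. Among 11 glia markers, 7 lay below and 2 above in both mutant libraries, with sums of 1278 and 1216 against 1138 and 1086 FPKM. Of the glia markers, repo, which lay below, had 35.8, 35.0, 21.9 and 26.7 FPKM, and Indy, which lay above, had 91.8, 78.0, 114 and 104.01 FPKM. Summed muscle markers stood at 2052 and 2037 FPKM in wild type and at 2498 and 2165 FPKM in the mutant, with 6 of 12 above in both mutant libraries. Of 6 expressed fat body markers 4 lay below and 1 above in both mutant libraries. Over all 8 fat body markers found, the sums were 7718 and 6452 FPKM in wild type and 5707 and 6050 FPKM in the mutant. In irradiated wild-type heads 8 of 9 expressed gut markers were more than 2-fold higher than in mock. The other one, Amy-p, an amylase, had 112, 109, 58.6 and 78.2 FPKM and made up most of the summed gut markers in all libraries but irradiated wild type. Over all 10 gut markers found, expressed or not, those sums were 116, 297, 65.2 and 87.0 FPKM. The part of these cell type markers in the members' differences was not tested.

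In embryos the members lay in both directions between the genotypes, in shares near those of all genes. Again 0 of 10 passed 2-fold between mutant and wild type, among mock (7.38% of all genes) and among irradiated libraries (9.48%). The median was 0.08 in mock and -0.07 in irradiated embryos, beside -0.01 and 0.01 over all genes, and 3 (50.6% of all genes) and 5 (48.5%) of the 10 were below 0. Neither median was steady: over the 7 members that reached 5 FPKM they were 0.24 and 0.00, without Syx1A the irradiated one was 0.00, and after rescaling it was -0.13. Both mutant libraries lay above both wild-type libraries for 4 members, Rab3, nSyb, Snap25 and cpx (33.5% of all genes), and below for 3 members, brp, unc-13 and Syx1A (32.4%). cpx was 0.58 higher in mock and 0.41 higher in irradiated mutant embryos, and its mock ratio was 1.54 with a counting interval of 1.40 to 1.70. Rab3 was 0.47 and 0.35 higher, with a mock ratio of 1.46 and an interval of 1.25 to 1.69. unc-13 differed by -0.17 and -0.46, and brp by -0.03 and -0.44.

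Marker lists of other cell types were compared between the embryo genotypes as well. Over all genes, 33.5% lay above and 32.4% below in both mutant libraries. Of 11 maternal transcripts, 10 lay above in both mutant embryo libraries, with sums of 287 and 333 FPKM in wild type against 448 and 497 in the mutant. Of 19 expressed neuron markers 7 lay above and 3 below, and elav had 40.0, 44.9, 38.9 and 35.6 FPKM. Of 11 glia markers 8 lay above and 2 below, with medians of 0.41 in mock and 0.43 in irradiated embryos, and of 11 expressed muscle markers 6 lay above and 3 below. Of 10 gut markers 4 lay above and 0 below, and 6 were more than 2-fold higher in mock mutant than in mock wild-type embryos. Of 5 expressed photoreceptor markers 2 lay above and 0 below. Fat body markers, 4 of them expressed, had 1 above and 2 below, with medians of -0.07 in mock and -0.76 in irradiated embryos. Of 12 embryonic neural markers 4 lay above and 3 below, with medians of -0.01 in mock and -0.01 in irradiated embryos. The part of these marker lists in the members' differences was not tested.

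Transcript length ran with genotype in both tissues. Over all genes of irradiated embryos the median difference of mutant minus wild type was 0.14 for genes with a mean annotated transcript under 2 kb, -0.07 for 2 to 5 kb and -0.31 for 5 kb or more. In irradiated heads the same medians were 0.05, -0.06 and -0.17. The 4 members of 5 kb or more, Rim, brp, unc-13 and Syn, had medians of -0.35 in irradiated embryos and -0.34 in irradiated heads. The other 6 members had medians of 0.31 and -0.02. Among mock libraries the long members had 0.01 in embryos and -0.23 in heads, and the short ones 0.19 and -0.01. Over all genes the mock medians, from the shortest class to the longest, were 0.04, -0.03 and -0.12 in embryos. In mock heads they were 0.09, -0.01 and -0.10. The embryo radiation difference over all genes of 5 kb or more was 0.12 in wild type and -0.08 in the mutant, and under 2 kb it was -0.02 and 0.08. Among the members both length classes had the same signs, with medians of 0.18 and -0.18 for the 4 long genes and 0.06 and -0.02 for the other 6. These length classes were chosen after the values were seen. The part of length, or of RNA quality that can act through it, in the members' differences was not tested.

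**Figure D3:**
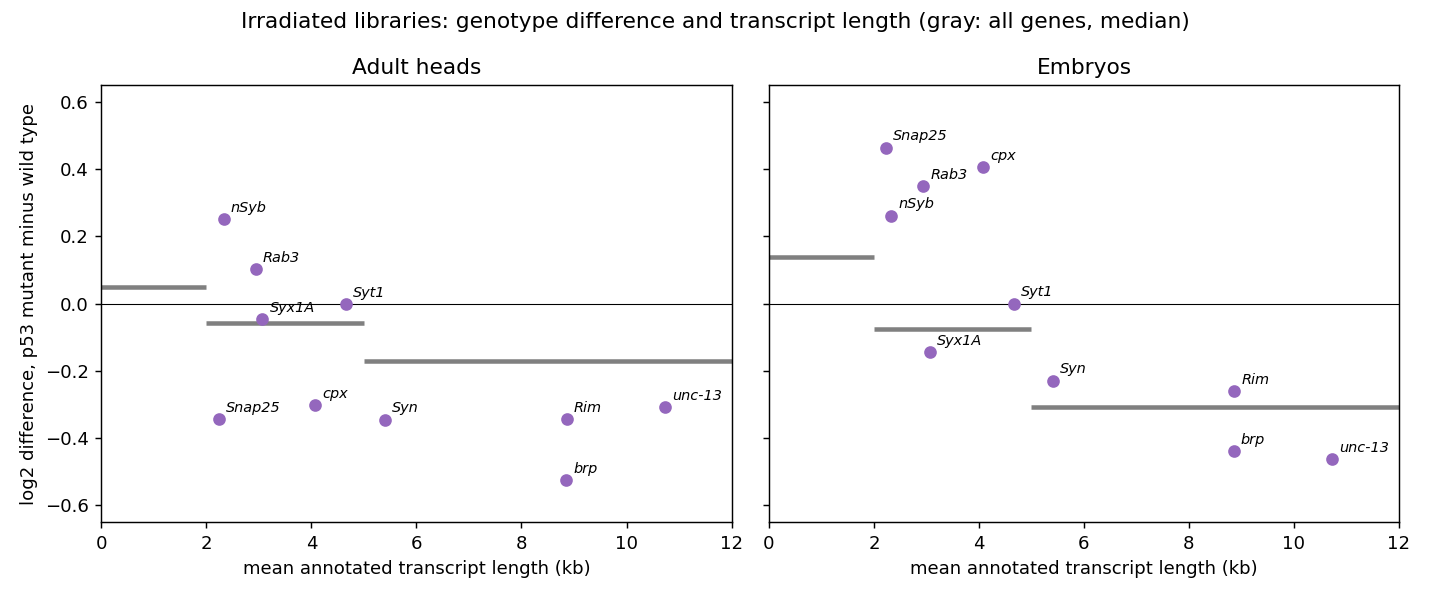
Log2 difference of p53 mutant minus wild type among irradiated libraries against mean annotated transcript length in kb, for the 10 genes (points) in adult heads, left, and embryos, right; gray bars are the medians of all genes under 2 kb, of 2 to 5 kb and of 5 kb or more. The 4 genes of 5 kb or more lie below 0 in both tissues, and so do the gray bars of that class, at -0.17 and -0.31.

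A wider list of presynaptic genes showed which other parts of the release apparatus passed 2-fold. Of 56 symbols looked for, 42 were found, and 42 in heads and 39 in embryos reached 1 FPKM. Across the 5 comparisons of each tissue, Rab3-GEF and Synj were the ones past 2-fold. In mutant heads 23 of the 42 lay below in both libraries (31.4% of all genes) and 7 above (32.5%). By level in mock wild-type heads the list was led by alphaSnap, which takes SNARE complexes apart with its partner, at 245 FPKM, Sap47, a synapse associated protein, at 237, and Syt4 at 224. In embryos Csp, a vesicle chaperone, led with 187 FPKM, followed by the proton pump subunit Vha100-1 with 72.4 and by alphaSnap with 71.0.

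Rab3-GEF encodes the exchange factor that loads Rab3 with GTP. In embryos its levels were 1.27 FPKM in mock and 24.98 in irradiated wild type, and 2.58 and 2.29 FPKM in the mock and irradiated mutant. Irradiated wild type was thus far above the other 3 libraries. The ratio of irradiated to mock was 19.7 in wild type, with a counting interval of 16.95 to 22.99, and 0.888 in the mutant. On the log2(FPKM + 1) scale the differences were 3.52 and -0.12, and the p53-dependent difference was 3.64. Heads showed nothing of the kind, with 39.7, 36.6, 41.3 and 37.9 FPKM. Rab3 itself, its substrate, stood at 5.55 and 5.62 FPKM in the same mock and irradiated wild-type embryos.

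Synj (Synaptojanin), a lipid phosphatase of vesicle recycling, had 27.7 and 24.5 FPKM in wild-type heads and 50.6 and 57.1 in mutant heads. The difference was 0.84 in mock and 1.19 in irradiated heads. In embryos it had 1.31, 1.55, 3.89 and 3.29 FPKM, with differences of 1.08 and 0.75. Both mutant libraries lay above both wild-type ones in heads (32.5% of all genes) and in embryos (33.5%). No head peak lay within 375 kb.

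**Figure D4:**
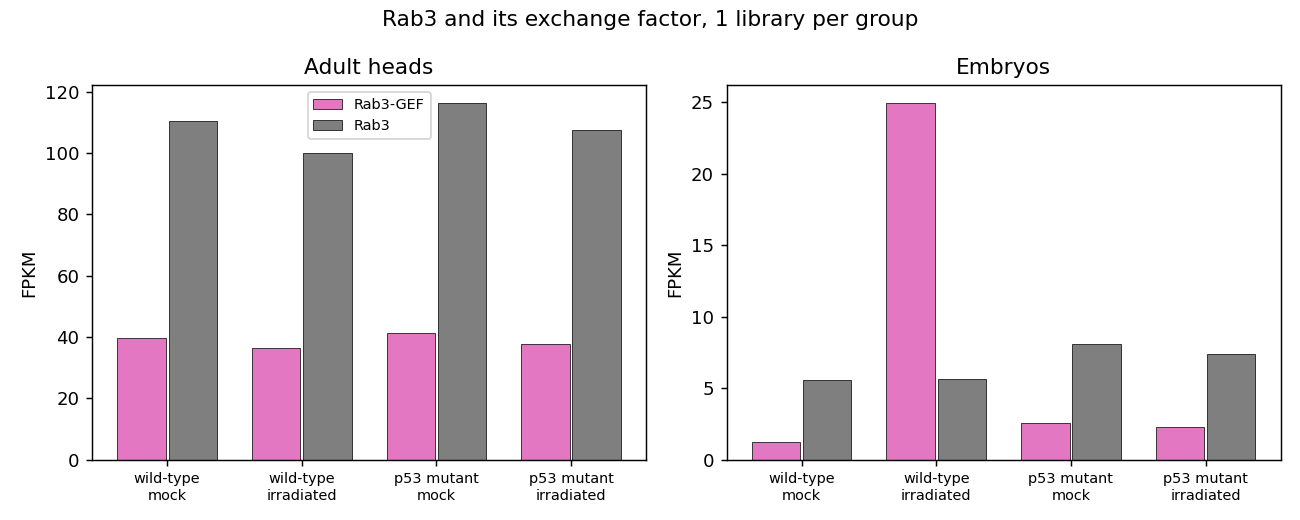
FPKM of Rab3-GEF (pink) and Rab3 (gray) in the 4 libraries of adult heads, left, and embryos, right, on separate linear axes from 0. In irradiated wild-type embryos Rab3-GEF reached 24.98 FPKM, and in the other 3 embryo libraries it stayed at or below 2.58.

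The p53 maps were read at the loci of the 10 genes, with coordinates on the dm6 build. The authors' list holds 392 peaks for heads and 135 for embryos. A head peak overlapped the table locus of 1 member, Syx1A, where 4.5% of all expressed genes had one. In embryos 0 members had a peak (1.1% of all genes). With 20 kb added to each side the count was 3 in heads, unc-13, Syx1A and Syt1 (17.9% of all genes), and 1 in embryos, Syt1 (5.11%).

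The Syx1A locus of the tables is that of a second gene. It spans 3R:24063077-24108960, which the annotation gives to 4EHP (eIF4EHP there), an inhibitor of translation that binds the mRNA cap. Syx1A itself is annotated on the minus strand at 3R:24101600-24105763. Exons of the 2 genes share 447 bp on the same strand, from 24101600 to 24102046, so fragments there can be counted for either gene. 4EHP had 69.0, 64.9, 63.9 and 57.0 FPKM in heads and 42.3, 46.1, 46.3 and 48.4 FPKM in embryos. For the other 9 members the table locus equals the annotated gene. The table locus of 8 of the 10 members is also given to another gene. For Rab3, unc-13, Snap25, Syt1 and cpx a neighbour had no match in the annotation, so shared exons with it were not checked. Syn shares 249 exonic bp with Timp on the opposite strand, in libraries labelled as stranded.

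The head peak lies at 3R:24106273-24106497, is 225 bp wide and has a fold of wild-type over mutant chromatin of 2.63 in the authors' deposited list. That is rank 235 of 392 and below the list's median fold of 2.93. It lies in an intron of 4EHP (3R:24102047-24106824), outside the annotated Syx1A gene. Its nearest edge is 510 bp and its summit 583 bp upstream of the Syx1A start site. By annotated gene spans 0 members held a head peak (3.01% of all genes) and 0 an embryo peak (0.756%). RNA of Syx1A in heads did not differ by 2-fold in any comparison.

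**Figure D5:**
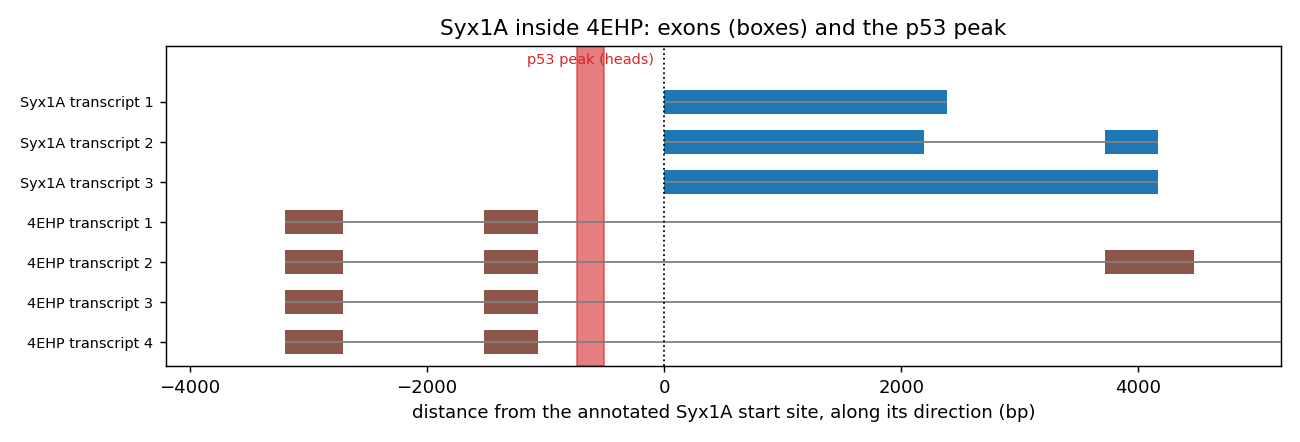
Exons (boxes) of the annotated Syx1A transcripts (blue) and of the 4EHP transcripts (brown) against the distance in bp from the Syx1A start site along its direction, with the p53 peak of heads in red. The peak's nearest edge is 510 bp upstream of the start site, inside an intron of 4EHP, and 1 exon of 4EHP shares 447 bp with Syx1A.

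Elsewhere the nearest peaks were distant. Syt1 had a peak 19.2 kb away in heads, with a fold of 4.79, and 19.3 kb away in embryos, with a fold of 4.03, and unc-13 had one 10.4 kb away in heads. For the other 7 members the nearest head peak lay between 69.0 kb (Rab3) and 1234 kb (Snap25) away. Rab3-GEF, by contrast, had a peak beside its start in both tissues. The head peak X:15089268-15089653 had a fold of 5.25 and its summit 221 bp upstream of the annotated start site at 15089682, and the embryo peak X:15089311-15089569 had a fold of 3.59 and its summit 252 bp upstream.

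Genes outside the machinery with the most similar profile were looked for among 8860 candidates at 5 FPKM or more in a head group. Likeness was the root mean square distance of log2(FPKM + 1), centred for each gene, to the mean profile of the 10 members over 8 libraries. The nearest were dysc at 0.03, Pde6, srpk79D and mmd between 0.05 and 0.06, and mAChR-B, a muscarinic acetylcholine receptor, at 0.06. dysc had 36.5, 35.6, 35.4 and 30.2 FPKM in heads and 1.28, 1.50, 1.57 and 1.41 FPKM in embryos. The members' own distances to their mean ran from 0.14 for Rim to 2.86 for Syx1A, so the mean profile describes Rim, Rab3 (0.15) and brp (0.17) better than Syx1A or Snap25 (1.64). The profile is dominated by the gap between the tissues.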

How the data were processed

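The 10 members and all gene lists were chosen with earlier results of these data known. RNA values are FPKM per gene and group, deposited by the authors in 1 table per tissue, per the file headers. cutadapt, TopHat2, Picard, SAMtools and Cuffdiff are named for the RNA reads, and cutadapt, Bowtie2, Picard, SAMtools and MACS2 for chromatin, with the dm6 build, per the submitters' processing notes. Tool versions, the annotation and any pooling were not given in the sources used here; they can shift levels. Deposited log2 columns, which the authors made after adding 1 FPKM per the file headers, differed from recomputed values by at most 0.0167. Deposited peaks carry a fold (ratio) of wild-type over mutant chromatin and −log10 p-values and q-values, which the authors made with MACS2 per the submitters' processing notes. Mutant chromatin served as background per the labels, so strain differences in sequence or copy number can give peaks. All numeric columns of the RNA tables were used or mapped (0 left unmapped).

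Differences used log2(FPKM + 1) within a table, for genes that reached 1 FPKM in any of a tissue's 4 groups, read at 2-fold. FPKM is relative, and fragments of overlapping genes are divided by the authors' software. With 1 library per group there was no test. Alternatives were other pseudocounts, limits, scalings and folds. Named genes were all members, p53, SNARE relatives, presynaptic genes past 2-fold, the 3 with the highest mock wild-type level and the 5 nearest profiles. Other genes named were chosen after their values were seen. They are elav, Gad1, repo, Indy, Amy-p, 4EHP and Timp.

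Depth was read from FPKM steps in genes with 1 annotated transcript of 800 to 3000 bp, with length reduced by 150 bp, a value taken from earlier work on these data. Of 2 step readings tried, the first, over a wide range of values, gave 6.44 to 10.0 M fragments in heads. The second, over the lowest values, gave 10.7 to 13.4 M and was written after the first disagreed with the earlier work. Its best and next reading were nearly tied in irradiated wild-type heads, at 13.3 and 11.2 M. In embryos both readings lay between 19.3 and 23.2 M. Intervals (95%, exact binomial for ratios and exact Poisson for levels) use the lowest reading per library, including length reductions of 100 to 250 bp, and cover counting error only. Fold calls and the second depth reading were tested on simulated data built with the same 150 bp, which does not test that value. The first reading, which gave the head depths used for the intervals, was not tested in this way.

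Annotation was Ensembl release 115. Coordinates are 1-based. Python 3.11.15, pandas 2.3.3, NumPy 2.4.6, SciPy 1.17.1 and matplotlib 3.10.9 were used. Sequences are not printed.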

Additional observations from a re-analysis of the deposited data

Results flagged for a closer look

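With 1 library per group, a result is listed here where its difference had opposite signs in 2 genotypes or 2 tissues, at least 0.1 from 0 on each side for the members, a limit set after the values were seen. None of these differences between groups was tested.

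The embryo radiation difference (log2, wild type minus mutant) came to 0.32 for Rim (0.11 and -0.21), 0.40 for brp (0.15 and -0.25), 0.47 for Syn (0.32 and -0.15) and -0.41 for Snap25 (-0.20 and 0.21). The counting intervals of the wild-type ratio of Rim and of both ratios of Snap25 included 1. For Rab3-GEF it was 3.64 (3.52 and -0.12).

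Between tissues, the genotype difference of cpx came to -0.83 in heads minus embryos among mock libraries (-0.26 and 0.58) and -0.71 among irradiated ones (-0.30 and 0.41). For Syn it was -0.46 among mock libraries (-0.22 and 0.24). Snap25 gave -0.81 among irradiated libraries (-0.34 and 0.46), and its mutant radiation difference gave -0.40 (-0.19 and 0.21). The wild-type radiation difference of Rab3-GEF gave -3.63 (-0.11 and 3.52).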

How the results depend on the processing

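No paired analysis was possible because each group has 1 library and the labels give no replicate numbers. All 80 alternative counts of members past 2-fold stayed at 0 with other pseudocounts, limits on low values, scalings, a 1.5-fold limit, and without Syx1A, which was added after seeing the data. Of 70 alternative medians 65 stayed within the counting error of the members' mean, a yardstick that leaves out the spread between animals. After rescaling all libraries to a common total, the head medians of mutant minus wild type were -0.20 in mock and -0.39 in irradiated libraries, and that of the p53-dependent response was 0.10. Centring on the median of the 7008 genes at 10 FPKM or more in all 4 head groups gave -0.091 for radiation in mutant heads. Over members at 5 FPKM or more, the mock embryo median of mutant minus wild type was 0.24. Members with a head peak numbered 3 with 20 kb added to the locus, 0 at or above the list's median fold and 0 by annotated gene span, an alternative added after seeing the data; with 20 kb added, embryos had 1. By the lowest depth reading, Snap25 rests on 47 to 85 fragments per embryo library and Syx1A on 227 to 346 per head library, which limits the precision of both.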
